A study of Mus musculus with 6 samples.

Results

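Adipocyte transcripts in the soleus were followed through 10 genes, *Adipoq*, *Cfd*, *Retn*, *Lep*, *Plin1*, *Cidec*, *Pparg*, *Fabp4*, *Lpl* and *Car3*. They were taken by symbol from the deposited normalized table, which holds 16247 rows for 16180 distinct gene identifiers, and all 10 were found there and in the raw count table. The soleus, a postural muscle of the calf with many slow fibers, was sequenced from 3 mice heterozygous for a *Mustn1* KO-first allele (HET) and 3 wild-type littermates (WT), at 8 weeks of age and on the C57BL6/N strain. The KO-first allele carries a lacZ gene trap that captures the first exon of *Mustn1*. It is present in every cell of the HET mice, so it was not restricted to muscle fibers or to fat. The comparison asks how the loss of 1 *Mustn1* allele relates to adipocyte RNA in this muscle.

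White adipocytes store fat as triglyceride in a single large droplet and secrete hormones called adipokines. Their identity depends on the nuclear receptor PPARγ, encoded by *Pparg*, together with C/EBP transcription factors. Adipocytes lie between muscle fibers and along the tissue that wraps a muscle, and fibers themselves take up and burn fatty acids, so several genes of fat handling are active in both cell types.

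Libraries held between 26790075 and 50368796 reads on genes. *Mustn1* itself was at 14.2 ± 2.33 CPM (read counts scaled to library size with TMM factors, mean ± SD, n = 3) in HET and 27.5 ± 3.89 CPM in WT mice, with a log2 fold change of −0.96 (SE 0.15) and an adjusted p of 0.0452 in edgeR. This call was lost without HET mouse 1, HET mouse 3, WT mouse 1 or WT mouse 2, where the adjusted p in edgeR was 0.137, 0.280, 0.0659 and 0.125. The labels give the mice as male, but every library held between 3858 and 9154 reads on *Xist*, which is transcribed from an inactive X chromosome, and between 0 and 12 reads on Y chromosome genes. Between mice of the same genotype, counts differed by more than repeated counting of a single library would give: the chi-square per gene ran from 15.0 to 24.5 in pairs of WT mice, where counting alone gives about 1. HET mouse 2 stood apart from the other HET mice, with 38.8 against HET mouse 1 and 42.8 against HET mouse 3, while those 2 mice gave 16.4. In the edgeR test, 21 of 14696 genes tested were higher in HET (0.143%) and 1 was lower (0.00680%) at an adjusted p below 0.05, and *Mustn1* was the gene that was lower. When any of the 4 mice just named for *Mustn1* was left out, 0 genes were called, with 768 to 1242 at an unadjusted p below 0.05 in edgeR.

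Of the 10 adipocyte genes, 0 passed this test, and 2 had an unadjusted p below 0.05 in edgeR, *Lpl* and *Car3*, both with lower values in HET. Over all genes tested, 7.76% had an unadjusted p below 0.05. DESeq2 and limma-voom also called 0 of the 10. The genes divided by how much they varied among mice. *Adipoq*, *Plin1*, *Lep*, *Cidec* and *Retn* differed at least 4-fold among the WT mice, as did 1.89% of all genes tested, and *Cfd* differed 3.20-fold. In all 6 of these genes, WT mouse 3 was above the other WT mice and HET mouse 1 was lowest of the HET mice. *Fabp4*, *Lpl* and *Car3* differed by 1.35-fold or less within either genotype. In RNA from whole muscle, the number of adipocytes, the RNA per adipocyte and the amount of fat adhering to the dissected muscle cannot be told apart.

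**Figure D1:**
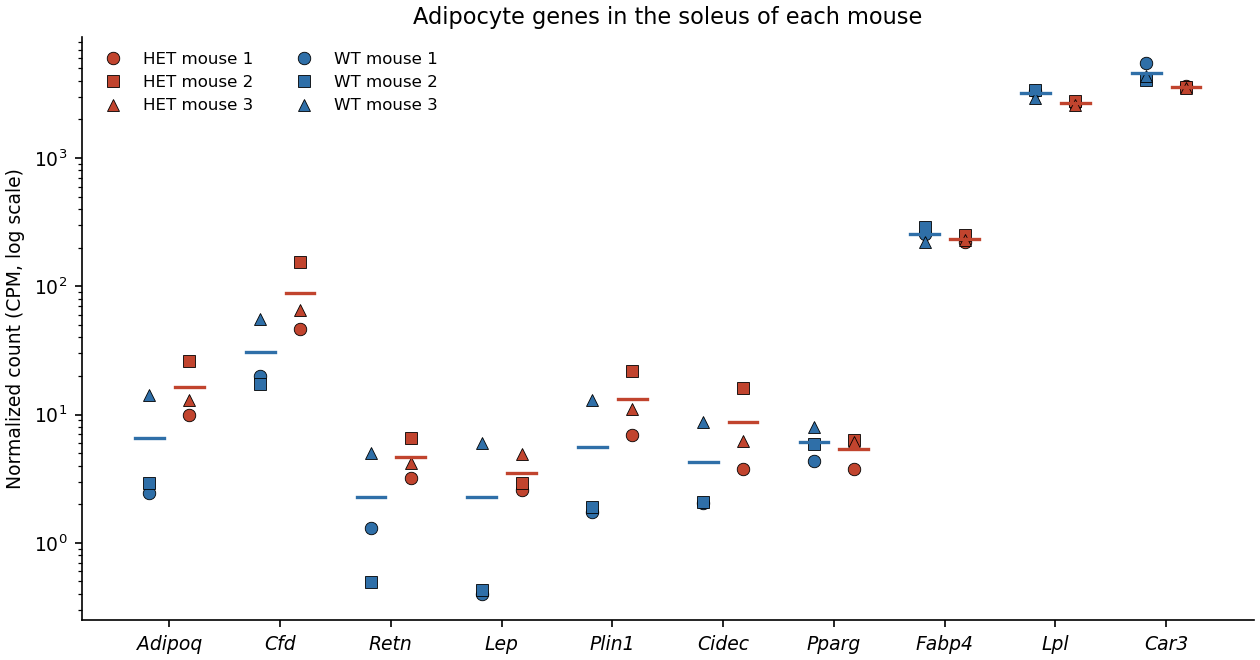
Normalized count (CPM, log axis) of the 10 adipocyte genes in each mouse, with WT in blue and HET in red, a marker shape for each mouse and a bar at the mean of 3 mice. WT mouse 3 (blue triangle) lies among the HET mice for *Adipoq*, *Cfd*, *Retn*, *Plin1* and *Cidec* and above them for *Lep*, whereas *Lpl* and *Car3* show narrow, separate groups.

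Promoters are shown for *Adipoq*, for *Plin1*, whose levels followed *Adipoq* most closely of the 10 genes, and for *Lep*, which had the widest range among mice. The sequences run from 250 bases before to 50 bases after the RefSeq transcript start in GRCm38.p6, 5′ to 3′ on the gene's strand. Capitals mark matches to TTGCNNAA, a form of the C/EBP site.
Adipoq (chr16:23146286-23146585, plus strand): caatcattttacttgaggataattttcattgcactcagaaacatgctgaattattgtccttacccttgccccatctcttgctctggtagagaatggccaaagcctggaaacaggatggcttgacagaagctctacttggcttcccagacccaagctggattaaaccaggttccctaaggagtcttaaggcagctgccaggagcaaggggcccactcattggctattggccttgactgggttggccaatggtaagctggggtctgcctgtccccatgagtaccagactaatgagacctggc
Plin1 (chr7:79732727-79733026, minus strand): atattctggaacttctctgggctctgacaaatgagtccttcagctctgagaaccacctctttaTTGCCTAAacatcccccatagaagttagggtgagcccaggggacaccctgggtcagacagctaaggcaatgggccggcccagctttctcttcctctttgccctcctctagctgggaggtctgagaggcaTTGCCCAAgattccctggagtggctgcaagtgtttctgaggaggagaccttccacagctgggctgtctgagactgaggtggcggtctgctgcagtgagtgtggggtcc
Lep (chr6:29059971-29060270, plus strand): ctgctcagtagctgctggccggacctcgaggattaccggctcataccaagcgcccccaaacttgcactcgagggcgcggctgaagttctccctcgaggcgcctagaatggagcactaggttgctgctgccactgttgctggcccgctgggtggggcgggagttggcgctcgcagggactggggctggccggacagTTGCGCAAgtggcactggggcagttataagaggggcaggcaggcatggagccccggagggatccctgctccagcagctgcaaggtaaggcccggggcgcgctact

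RefSeq promoters were matched for 7 of the 10 genes, not for *Fabp4*, *Lpl* and *Car3*. TTGCNNAA, searched on both strands, was found in 4 of 10 windows, 1 each of *Plin1*, *Lep*, *Cidec* and *Pparg*, against 10.8% of 32544 promoters of the same length. *Pparg* has 3 of these windows and *Cidec* 2. In *Plin1* the matches began 187 and 58 bases before the start, and in *Lep* the match began 55 bases before it. The *Adipoq*, *Cfd* and *Retn* windows held none. The site for a nuclear receptor monomer, AGGTCA, was in 2 of the 10 windows, both of *Pparg*, and in 16.2% of all promoters. A direct repeat of these letters with 1 base between, the form bound by PPARγ with RXR, was in 0 of the 10 windows and in 0.0399% of all promoters. The TATA box letters TATAAA were in 1 window, of *Pparg*, and in 13.6% of all promoters. These matches describe the letters in the windows and are not measured binding sites.

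The secreted products came first. *Adipoq* (ENSMUSG00000022878, chr16:23146536-23158028, plus strand) encodes adiponectin, an adipokine that sensitizes tissues to insulin. It was at 9.96, 26.1 and 13.1 CPM in HET mice 1 to 3 and at 2.44, 2.94 and 14.2 CPM in WT mice 1 to 3. HET mouse 2 was highest, and WT mouse 3 was above HET mice 1 and 3, so the genotypes overlapped. The means were 16.4 ± 8.55 and 6.54 ± 6.67 CPM (SD, n = 3 each), and the log2 fold change was 1.27 (SE 0.84, 95% interval −0.94 to 3.47, edgeR adjusted p = 0.857).

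*Cfd* (ENSMUSG00000061780, chr10:79890853-79892655, plus strand) encodes adipsin, the complement factor D that cleaves factor B and is secreted in large amounts by fat. It was at 46.8, 156 and 65.3 CPM in the HET mice and at 20.1, 17.3 and 55.2 CPM in the WT mice. WT mouse 3 exceeded only HET mouse 1. Its log2 fold change of 1.52 (SE 0.72, edgeR adjusted p = 0.768) was the highest of the 10 genes, with an interval from −0.39 to 3.42.

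*Retn* (ENSMUSG00000012705, chr8:3655770-3660110, plus strand) encodes resistin, a hormone of mouse adipocytes. It was at 3.18, 6.60 and 4.19 CPM in HET and at 1.30, 0.497 and 5.0 CPM in WT mice. The low WT values rest on 39 reads in mouse 1 and 14 in mouse 2, compared with 247 in mouse 3. HET over WT gave a log2 fold change of 0.95 (SE 0.78, edgeR adjusted p = 0.882).

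*Lep* (ENSMUSG00000059201, chr6:29060220-29073877, plus strand) encodes leptin, the hormone that signals the size of the fat store to the brain. It was at 2.56, 2.91 and 4.97 CPM in HET and at 0.401, 0.426 and 5.96 CPM in WT mice. WT mouse 3 was thus the highest of all 6 mice, and WT mice 1 and 2, with 12 reads each, were the lowest. The 14.8-fold range in WT was the widest of the 10 genes. Its log2 fold change was 0.54 (SE 1.09, edgeR adjusted p = 0.962), and its interval from −2.28 to 3.36 holds large differences in both directions.

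The lipid droplet proteins behaved like the adipokines. *Plin1* (ENSMUSG00000030546, chr7:79720218-79732903, minus strand) encodes perilipin 1, which coats the droplet and guards it from lipases. It was at 6.92, 21.7 and 11.1 CPM in HET and at 1.74, 1.92 and 13.0 CPM in WT mice. HET mouse 2 was highest and WT mouse 3 was next. The means of 13.2 ± 7.62 and 5.55 ± 6.44 CPM gave a log2 fold change of 1.18 (SE 0.98, edgeR adjusted p = 0.885).

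*Cidec* (ENSMUSG00000030278, chr6:113424634-113435760, minus strand) encodes a protein that fuses small droplets into the single large droplet of a white adipocyte. It was at 3.79, 16.2 and 6.18 CPM in HET and at 2.04, 2.09 and 8.77 CPM in WT mice. Unlike the other 9 genes, it also varied at least 4-fold among HET mice, by 4.28-fold. With all 6 mice its log2 fold change was 0.95 (SE 0.86, edgeR adjusted p = 0.891).

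*Pparg* (ENSMUSG00000000440, chr6:115360951-115490399, plus strand) encodes the transcription factor that directs adipocyte formation and overlaps the antisense gene *Gm44079*, from which the strand-specific counting separates it. It was at 3.77, 6.30 and 6.11 CPM in HET and at 4.35, 5.85 and 8.06 CPM in WT mice. WT mouse 3 was highest here too, but by 1.58-fold over the mean of WT mice 1 and 2, against 5.29-fold for *Adipoq*. The log2 fold change was −0.19 (SE 0.26, edgeR adjusted p = 0.932), and it was above 0 without HET mouse 1 (0.015) or without WT mouse 3 (0.077).

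*Fabp4* (ENSMUSG00000062515, chr3:10204088-10208576, minus strand) encodes a fatty acid carrier of adipocytes that capillary endothelium and macrophages also make. It was at 223, 252 and 228 CPM in HET and at 258, 291 and 221 CPM in WT mice. WT mouse 3, high for the adipokines, was the lowest of all 6 mice for *Fabp4*. Its log2 fold change was −0.13 (SE 0.11, edgeR adjusted p = 0.878), with an interval from −0.37 to 0.11. The 12 endothelial markers had a median log2 fold change of −0.01 with 0 called, and their summed level was 754 to 923 CPM in HET and 800 to 978 CPM in WT mice.

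*Lpl* (ENSMUSG00000015568, chr8:68880491-68907448, plus strand) encodes lipoprotein lipase, which frees fatty acids from circulating triglyceride and is made by fat, muscle and heart. It was at 2638, 2769 and 2598 CPM in HET and at 3341, 3417 and 2928 CPM in WT mice. The HET values all lay below the WT values. The log2 fold change was −0.27 (SE 0.09, interval −0.47 to −0.08), which did not pass the test (edgeR adjusted p = 0.382).

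*Car3* (ENSMUSG00000027559, chr3:14863512-14872523, plus strand) encodes carbonic anhydrase 3, a cytosolic enzyme abundant in both slow fibers and adipocytes. It was at 3650, 3561 and 3512 CPM in HET and at 5484, 4069 and 4365 CPM in WT mice. All HET mice were again below all WT mice, and the HET values lay within 1.04-fold of each other. The log2 fold change was −0.38 (SE 0.11, interval −0.63 to −0.13, edgeR adjusted p = 0.312). With no filter on low counts the adjusted p of *Car3* in edgeR was 0.0162, in a fit that called 404 of 29081 genes.

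The same measures over all genes give the background. All HET values lay below all WT values in 6.02% of genes tested, and above them in 7.55%, compared with 2 and 0 of the 10 genes. A range of at least 4-fold among HET mice was found in 1.37% of all genes and in 1 of the 10. The genewise spread between mice, as a biological coefficient of variation, was 0.931 for *Lep*, 0.799 for *Plin1* and 0.692 for *Adipoq*, and only 5, 10 and 28 genes tested had a larger one. It was 0.101 for *Lpl*, 0.110 for *Fabp4* and 0.117 for *Car3*.

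The size of the difference in the variable genes depended on WT mouse 3. Without it, the log2 fold change was 3.07 for *Lep* (SE 0.40), 2.84 for *Plin1* (SE 0.57), 2.59 for *Adipoq* (SE 0.48) and 2.34 for *Retn* (SE 0.44). It was 2.25 for *Cfd* (SE 0.70) and 2.06 for *Cidec* (SE 0.76). *Lep* then passed the test (edgeR adjusted p = 0.0123), and the next smallest adjusted p in edgeR was 0.0567, for *Retn*. Across all genes, 0.519% were called higher without this mouse, and an unadjusted p below 0.05 was reached by 6.09% of genes in the higher and 1.99% in the lower direction. Among the 10 genes, 6 reached it in the higher direction and 2, *Lpl* and *Car3*, in the lower. Those 6 genes were highest in WT mouse 3 among the WT mice, so leaving it out raises their fold changes by construction. They also moved together among mice and do not count as 6 separate results. The fit without this mouse is therefore given as a description. Without HET mouse 2, the mouse with the most *Adipoq* and *Cfd*, the log2 fold changes were 0.78 for *Adipoq*, 0.86 for *Cfd* and 0.18 for *Cidec*, and 0 of the 10 genes passed. HET mouse 2 is also the library that stood apart in the counts of all genes. The labels mark neither mouse as different, and the values from all 6 mice are given as the comparison.

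**Figure D2:**
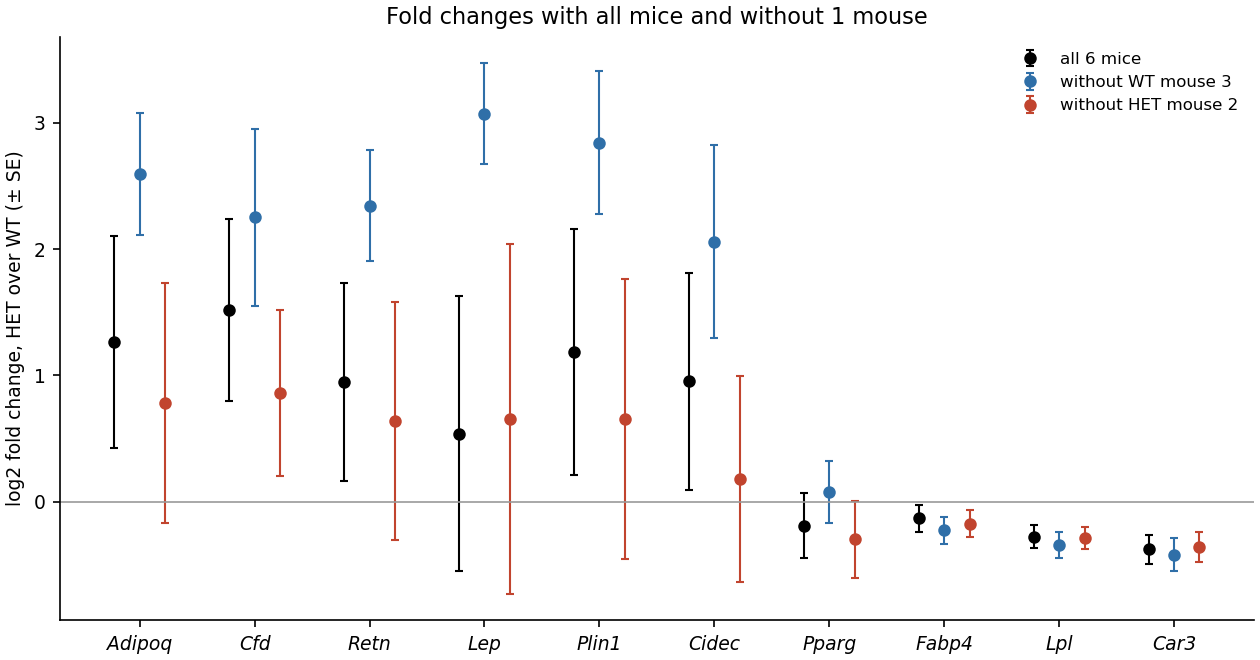
Log2 fold change of HET over WT with its SE for each of the 10 genes, from edgeR with all 6 mice (black), without WT mouse 3 (blue) and without HET mouse 2 (red). The 6 adipokine and droplet genes lie between 2.06 and 3.07 without WT mouse 3, whereas *Fabp4*, *Lpl* and *Car3* stay below 0 in all 3 fits.

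Within each mouse, the reads of *Plin1*, *Cfd* and *Cidec* kept similar proportions to those of *Adipoq*, and *Retn* and *Lep* did so less closely. There were between 0.651 and 0.912 *Plin1* reads for each *Adipoq* read, a 1.40-fold range over mice in which *Adipoq* itself ranged 10.7-fold. The range was 2.12-fold for *Cfd*, 2.19-fold for *Cidec*, 3.17-fold for *Retn* and 3.75-fold for *Lep*. For *Lep* the ratio was lowest in HET mouse 2, at 0.111, and highest in WT mouse 3, at 0.418, although both mice had much *Adipoq*. By contrast, *Fabp4* had between 9.66 and 106 reads for each *Adipoq* read, *Lpl* between 106 and 1368 and *Car3* between 137 and 2246, which are ranges of 10.9-fold, 12.9-fold and 16.5-fold. *Pparg*, with an 8.23-fold range, was nearer to these than to the adipokines. The ratios share their denominator and are given as a description.

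**Figure D3:**
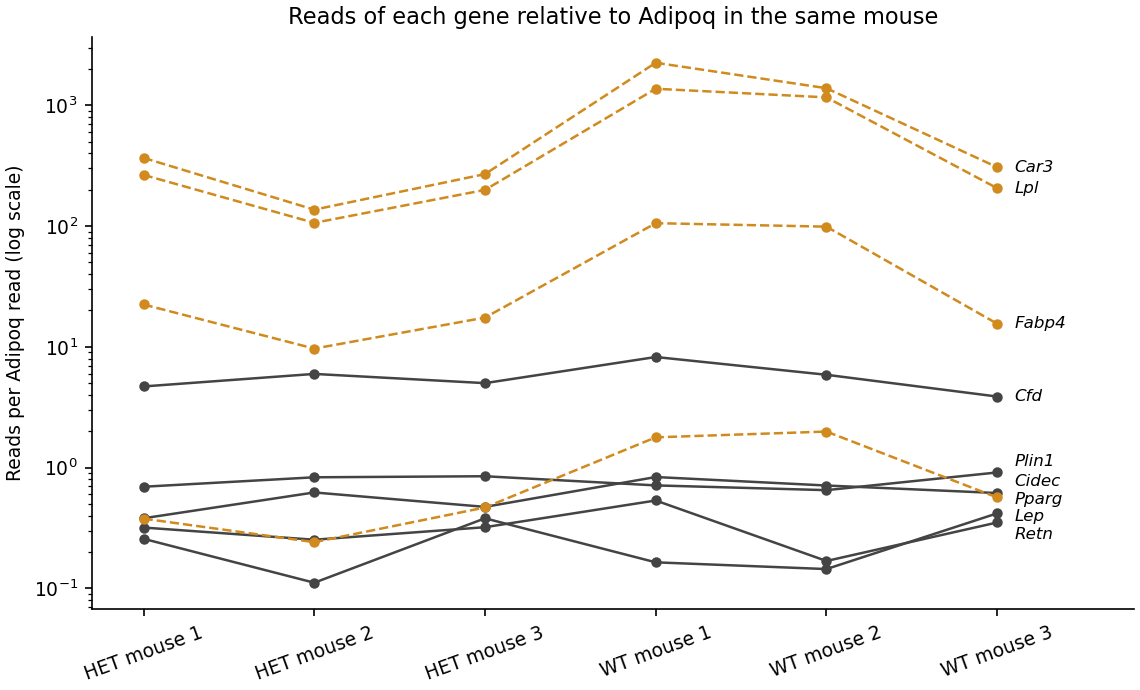
Reads of each of 9 genes per *Adipoq* read in the same library (log axis) for the 6 mice, with lines joining the values of a gene. Solid grey lines mark genes whose ratio ranged less than 4-fold, with *Retn* and *Lep* the least level of them. Dashed orange lines mark *Pparg*, *Fabp4*, *Lpl* and *Car3*, which are high in WT mice 1 and 2, where *Adipoq* was low.

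Levels per length, in TPM (reads divided by annotated exon bases and scaled to the library), ran from 4044 for *Car3* and 795 for *Lpl*, over all 6 mice, to 2.48 for *Lep*. *Cfd* (188 TPM) and *Fabp4* (155 TPM) followed *Lpl*. *Adipoq* was at 24.0 TPM, *Cidec* at 10.1, *Retn* at 6.34, *Plin1* at 5.85 and *Pparg* at 5.52 TPM. The order of *Cfd* and *Fabp4* changed between mice, with *Fabp4* above *Cfd* in WT mice 1 and 2 only. Their means were 285 ± 181 and 155 ± 8.75 TPM in HET and 91.8 ± 65.1 and 155 ± 19.0 TPM in WT mice (SD, n = 3 each). In every mouse *Adipoq* was above *Cidec*, *Cidec* above *Retn* and *Pparg* above *Lep*. The order of *Retn*, *Plin1* and *Pparg* changed between mice. The 4489 exon bases of *Fabp4* cover its whole gene span, which lowers its level per length.

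Summed over the 8 genes other than *Lpl* and *Car3*, the reads (RPM, scaled to all reads on genes) were 310, 488 and 354 RPM in HET and 280, 314 and 325 RPM in WT mice. HET mouse 1 was below WT mice 2 and 3. The log2 ratio of the means was 0.33. The sum was mostly *Fabp4*, which endothelium and macrophages also make, so it does not measure adipocyte RNA alone. Of the 8 genes, *Cfd* had the largest difference in means, with 89.2 ± 58.2 CPM in HET and 30.9 ± 21.1 CPM in WT mice (SD). Over *Adipoq*, *Plin1*, *Cidec*, *Lep* and *Retn* the sum was 27.3, 73.6 and 41.2 RPM in HET and 7.64, 7.68 and 46.0 RPM in WT mice. WT mice 1 and 2 were thus nearly equal, and WT mouse 3 lay between HET mice 3 and 2.

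The same mice stood out in 34 other genes known from adipocytes. This list was chosen with earlier results of these data known, so its values are given as a description. In edgeR 0 of the 34 were called and 7 had an unadjusted p below 0.05, all higher in HET. A log2 fold change above 0 was found in 28. Of all 14696 genes tested, 846 had an unadjusted p below 0.05 in the higher direction in edgeR, and 6702 were above 0. The median of the 34 was 0.47, against −0.02 for all genes tested. HET mouse 2 was the highest HET mouse in 26 of the 34 and WT mouse 3 the highest WT mouse in 29. Over all genes tested these mice were highest of their genotype in 38.5% and 33.9%. The highest log2 fold change was 1.58 (SE 0.64), for the amino acid transporter *Slc7a10*, with 0.935, 2.68 and 1.48 CPM in HET and 0.201, 0.213 and 1.11 CPM in WT mice. The lowest was −0.31 (SE 0.16), for *Gpd1*, the cytosolic glycerol phosphate dehydrogenase. The most abundant per length, *Acsl1*, *Plin4* and *Dgat2*, which activate, coat and build stored fat and are active in fibers too, had log2 fold changes of −0.08, −0.16 and −0.03. With any mouse other than WT mouse 3 left out, 0 of the 34 were called. The median then ran from 0.32 (without WT mouse 1) to 0.61 (without HET mouse 1). Without WT mouse 3 the median was 0.81 and *Slc7a10* (2.99, edgeR adjusted p = 0.0488) and *Lgals12* (2.89, edgeR adjusted p = 0.0320) were called. In that fit 0.519% of all genes tested were called higher. In WT mice 1 and 2, *Slc7a10* had 6 and 6 reads and *Lgals12* had 6 and 8. Both genes were highest in WT mouse 3 among the WT mice, so leaving it out raises their fold changes by construction. *Lgals12* encodes a galectin of the lipid droplet.

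**Figure D4:**
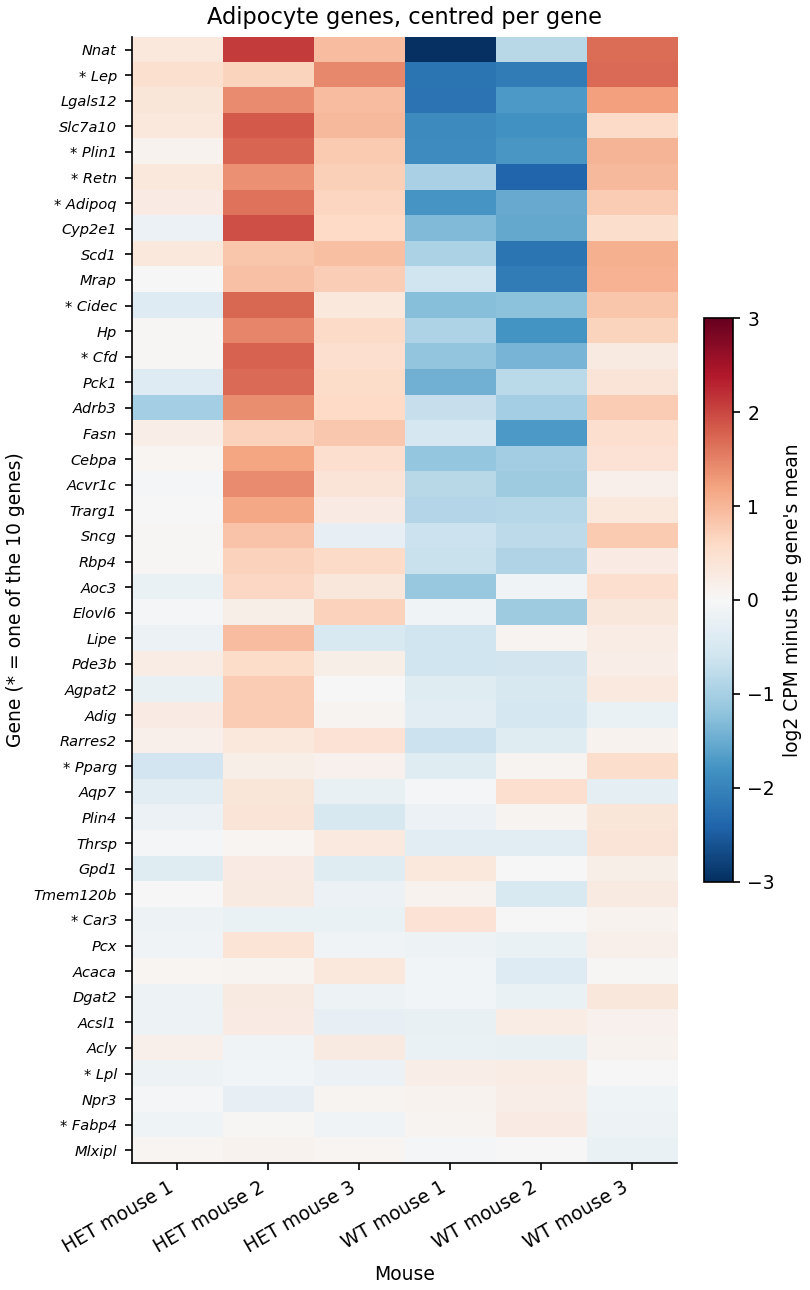
Log2 CPM minus the gene's mean over the 6 mice, for the 10 genes (starred) and 34 other adipocyte genes, ordered by their spread from top to bottom. Columns are mice and the colour scale runs from −3 (blue) to 3 (red). In the upper rows HET mouse 2 and WT mouse 3 are red and WT mice 1 and 2 are blue, and the lower rows, with *Lpl*, *Fabp4* and *Car3*, are nearly white.

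Markers of brown adipocytes were found at unequal levels. *Ucp1*, the uncoupling protein that defines these cells, had between 0 and 2 reads in each library, and *Elovl3* had between 0 and 5. *Cidea* was at 10.2, *Dio2* at 4.34, *Ebf2* at 2.77 and *Prdm16* at 1.58 TPM over all mice. Of the 8 brown adipocyte genes 6 were tested and 0 were called, with *Dio2* highest (0.55, SE 0.16) and *Otop1* lowest (−0.57, SE 0.56) in log2 fold change, and the median was −0.09.

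Genes of the droplet and of lipolysis, 17 of 18 tested, had a median log2 fold change of 0.06 with 0 called. The range was from −0.20 (SE 0.14) for *Plin3* to 0.35 (SE 0.29) for *Pnpla3*. *Fitm1*, *Pnpla2* and *Plin4* were most abundant per length, and *Pnpla2*, the first lipase of fat breakdown, was at 0.02 (SE 0.26). Partners that handle *Lpl* or its products, 7 of 13 tested, also had 0 called, and a median of −0.03. *Angptl4*, an inhibitor of lipoprotein lipase, was at 7.43, 54.2 and 2.64 CPM in HET and at 3.65, 15.6 and 4.17 CPM in WT mice. HET mouse 2 was far above all others, and the log2 fold change of 1.46 (SE 1.38) was the highest of the list. *Gpihbp1*, which holds the lipase on the capillary wall, was lowest at −0.25 (SE 0.14). *Cd36*, the fatty acid receptor, *Vldlr* and *Sel1l* were most abundant per length, at −0.17, −0.07 and −0.03.

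Regulators that act with or before PPARγ, all 22 tested, had a median of 0.00 and 0 called. *Cebpa*, a C/EBP factor of mature adipocytes, was highest at 1.02 (SE 0.52), with 8.15, 17.9 and 11.2 CPM in HET and 3.51, 3.83 and 10.6 CPM in WT mice. Like *Adipoq*, it was highest in HET mouse 2 and low in WT mice 1 and 2. *Dlk1*, a marker of preadipocytes, was lowest at −0.56 (SE 0.39), and the most abundant per length were *Cebpb* (0.02), *Rxra* (−0.03) and *Klf15* (−0.25).

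Adipokine receptors and complement partners of adipsin, 8 of 10 tested, had a median log2 fold change of 0.36, with 0 called. An unadjusted p below 0.05 in edgeR was reached by 4 of the 8, against 7.76% of all genes tested. *C3ar1*, the complement C3a receptor, was highest at 1.82 (SE 0.37, edgeR adjusted p = 0.108). *Cdh13*, which binds adiponectin, was lowest at −0.07 (SE 0.08). The adiponectin receptors *Adipor1* and *Adipor2*, most abundant per length with *Cdh13*, were at −0.06 (SE 0.09) and −0.04 (SE 0.08).

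Relatives of *Fabp4* and *Car3* had 0 called. *Fabp3*, the muscle fatty acid carrier (−0.16, SE 0.22), and *Fabp5* (−0.33, SE 0.20) were the 2 of 8 fatty acid binding proteins tested, and *Fabp7* was next in level per length. Of 15 other carbonic anhydrases 9 were tested, with a median of 0.00, and they ran from −0.24 (SE 0.21) for *Car4* to 0.76 (SE 0.64) for *Car12*. *Car14*, *Car2* and *Car8* were most abundant per length, at −0.18, 0.00 and −0.12.

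Marker RNA of other cell types was compared in the same fit. All 10 macrophage markers were above 0 in log2 fold change, with a median of 1.40, and 5 were called higher in edgeR. Leaving out HET mouse 1, HET mouse 3, WT mouse 1 or WT mouse 2 ended all 5 calls, with all 10 markers still above 0 and medians from 1.21 to 1.42. *C1qa* was at 1.48 (SE 0.14, edgeR adjusted p = 0.0130), *Lyz2* at 1.29 (SE 0.14, edgeR adjusted p = 0.0147), *C1qb* at 1.43 (SE 0.18, edgeR adjusted p = 0.0242) and *Csf1r*, the receptor for macrophage growth factor, at 1.39 (SE 0.20, edgeR adjusted p = 0.0452). The list ran from *Mrc1* (0.33) to *Fcgr1* (2.14). Its summed level was 82.8 to 120 CPM in HET and 48.0 to 53.2 CPM in WT mice, and WT mouse 3, at 49.9 CPM, was among the other WT mice.

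Fibro-adipogenic progenitors are the connective tissue cells of muscle that can become adipocytes. Their 10 markers had a median of 0.59 and ran from *Cd55* (0.18) to *Dpp4* (1.30), and *Pi16* was called higher (1.06, SE 0.15, edgeR adjusted p = 0.0452), a call that ended without the same 4 mice, each left out in turn. Their summed level was 1317 to 1465 CPM in HET and 703, 813 and 1078 CPM in WT mice 1 to 3. The 8 tendon markers had a median of 0.98 with 0 called, from *Chodl* (0.04) to *Comp* (1.85). An unadjusted p below 0.05 in edgeR was reached by 7 of the 10 progenitor markers and 5 of the 8 tendon markers. All of these were higher in HET, and 7.76% of all genes tested reached it in either direction. The tendon markers summed to 378, 638 and 589 CPM in HET and to 137, 273 and 313 CPM in WT mice. The tendon sum was thus highest in HET mouse 2 and WT mouse 3 within their genotypes, as *Adipoq* was, and its part in the adipocyte values was not tested.

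Slow fiber markers had a median of −0.08 over 9 genes and ranged from *Myoz2* (−0.18) to *Myh7* (0.01), and fast fiber markers had a median of −0.21 over 11 genes and ranged from *Myh4* (−0.91, SE 1.5) to *Myh2* (0.14), with 0 called in both lists. *Myh4*, the fastest myosin, was at 44.7, 2042 and 167 CPM in HET and at 1470, 1774 and 976 CPM in WT mice. HET mouse 2, which had the most *Adipoq*, was the highest of all mice for *Myh4*, and HET mice 1 and 3 were the lowest. Endothelial markers ran from *Cdh5* (−0.18) to *Cldn5* (0.22). Red blood cell genes had a median of −0.24 over 5 genes, with 0 called, from *Alas2* (−0.40) to *Hba-a1* (−0.13). The values for fast fibers and red blood cells lay near those of *Lpl* and *Car3*, and their part in those values was not tested.

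The genes closest to *Adipoq* over the 6 mice, by the mean absolute difference of centred log2 CPM among 13605 genes at 0.5 CPM or more, were *Slc7a10* (0.14), *Lgals12* (0.22), *Cyp2e1* (0.24), *Hp* (0.28), *Serpina3n* (0.28), *Acp5* (0.30), *Klhdc7a* (0.31) and *Ffar2* (0.31). The first 4 are in the list of other adipocyte genes, which was chosen with earlier results of these data known. Of the 10 genes, *Plin1* (0.16), *Cfd* (0.27), *Cidec* (0.31), *Retn* (0.36) and *Lep* (0.61) were close to it, and *Pparg* (0.99), *Fabp4* (1.2), *Lpl* (1.22) and *Car3* (1.23) were not. Among the closest to *Car3* were *Vcp-rs* (0.04), *Phkb* (0.06), *2310040G24Rik* (0.06), *Gm43682* (0.06), *Zfp39* (0.07), *Mylk4* (0.07) and *Tmem42* (0.07). *Phkb* encodes a subunit of phosphorylase kinase, which starts glycogen breakdown in muscle. *Lpl* was at 0.12 from *Car3* and ranked only 398 among the 13605 genes in closeness to it. Apart from *Lpl*, none of the genes named as close to *Car3* is in the lists of adipocyte genes. *Vcp-rs* is by name a related sequence of *Vcp*, so its reads may be shared with that gene.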

How the data were processed

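RNA from the soleus of 3 HET and 3 WT mice was sequenced as poly-A libraries with single reads. Per the labels and the study's methods, the authors aligned reads with STAR 2.7.3a to GRCm38.p6 and counted them per gene with featureCounts 2.0.3 in strand-specific mode. The deposited raw counts are reads per gene for 51912 genes. The deposited normalized signal is the count divided by a DESeq2 size factor for each library (0.773 to 1.42). The authors' comparison, with fold changes and p-values, was deposited as well and was not used. No column of values was without a sample (0 unmatched).

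Raw counts were compared in R 4.3.3 with edgeR 4.0.16 (filterByExpr with a minimum count of 10, TMM, robust quasi-likelihood test, two-sided, Benjamini-Hochberg over 14696 genes, threshold 0.05). The SE is the size of the log2 fold change over the square root of F, and 95% intervals use the t distribution with the test's degrees of freedom. Alternatives used limma 3.58.1, DESeq2 1.42.0, other scaling, other filters, the replicate block and each mouse left out. The steps were tested on simulated data. Nothing states that mice are independent beyond their labels as separate animals, and with 3 mice against 3 an exact permutation test cannot go below 0.1. Libraries held 26790075 to 50368796 reads, so low genes such as *Lep*, with 12 reads in WT mice 1 and 2, carry more counting error.

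All 10 genes are given. Of each list, the ends, up to 4 called genes by smallest p and, for lists of the same pathways, the 3 most abundant per length are named, with the 8 genes most like *Adipoq* and *Car3*. One of those most like *Car3* is not reported here. *Lgals12*, *Ucp1* and *Elovl3* were also named for their values. The 10 genes and the lists were chosen with earlier results of these data known. Genes were named from GENCODE M21, which shares 51633 identifiers with the count table.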

Additional observations from a re-analysis of the deposited data

How the results depend on the processing

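The count of called adipocyte genes was 0 under 9 of the 10 alternatives that kept all mice, and 1 without a filter on low counts (*Car3*). Leaving out each mouse gave 0 to 1 (*Lep*, without WT mouse 3). The log2 fold change of *Pparg* was 0.015 without HET mouse 1 and 0.077 without WT mouse 3, on the other side of 0 from −0.19, and its range over the mice left out was −0.38 to 0.077. The other 9 genes kept their sign under every alternative run. The cause of these changes was not tested.

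Over all genes, 22 were called with all mice. DESeq2 called 210, limma-voom 13, no filter 404 and a non-robust dispersion 6, and leaving out each mouse gave 0 to 83, with 0 in the 4 fits without HET mouse 1, HET mouse 3, WT mouse 1 or WT mouse 2. *Mustn1* stayed at −0.96 with a non-robust dispersion, where the edgeR adjusted p was 0.0606, and lay between −1.09 and −0.88 when a mouse was left out, with its call lost in 4 of these 6 fits (edgeR adjusted p from 0.0659 to 0.280).

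With the replicate number as a block, edgeR called 116 genes (114 higher and 2 lower) and 0 of the 10. Same-numbered mice had correlated deviations of 0.20, −0.01 and −0.03, and 2 of 6 samples correlated best with their own number, so the numbers were not taken as pairs.

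The log2 ratio of the summed reads, 0.33 over 8 genes, was −0.23 over all 10 genes, which *Lpl* and *Car3* dominate, 1.21 over *Adipoq*, *Plin1*, *Cidec*, *Lep* and *Retn*, and 1.11 as a mean of log2 CPM. It lay between 0.12 and 0.46 when a mouse was left out. DESeq2 gave no adjusted p for *Lep*. Depth limits *Lep* and *Retn* in WT mice 1 and 2, where 12 to 39 reads were counted.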
